A study of Mus musculus with 2 samples.

Results

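The genes described here are 36 transcription factors and transcriptional cofactors that establish or maintain the endocrine cells of the pancreas. They were chosen by name, and a probe set was counted for a factor when the platform annotation gave that factor as its only gene symbol. Of the 36 factors 33 were analysed here through such probe sets, 68 in all, out of 18193 genes measured by 34945 probe sets. Of these 33 factors 27 reached the floor used here, the median of all probe set values at a log2 value of 5.76, on at least 1 of the arrays. Rfx6 and Fev were not analysed here, and the 3 probe sets for Etv1 carried a second symbol, so no value is given for these 3 factors.

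The study measured gene expression in pancreatic islets of 6 weeks old male mice with Affymetrix arrays, in 2 samples. The transgenic sample overexpressed miR-141/200c, and the control is labelled as Bl6, from C57Bl6 islets. The islets received no further treatment between isolation and RNA extraction. The labels give beta cells as the source and islets as the tissue. They do not state the promoter that drives the transgene (the sample title reads Ripmir), the strain background of the transgenic mice, or how many mice were pooled, so transgene, strain and preparation cannot be told apart. There was 1 array per genotype, so replicate error is unknown throughout, a test across samples was not possible, and the words higher and lower compare these 2 arrays only.

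Endocrine cells of the pancreas arise from a duct-like progenitor epithelium in which Neurog3 is switched on briefly. Neurog3 then activates a layer of factors, among them Neurod1, Nkx2-2, Insm1, Myt1 and St18, that is shared by the hormone cells. Within that shared layer, Pdx1, Nkx6-1 and Mnx1 hold the beta cell identity, Irx1, Irx2 and Pou3f4 belong to the alpha cell lineage, and Hhex marks delta cells. In adult islets many of these proteins stay on and keep the hormone and glucose sensing genes active. The factors were therefore sorted into 7 beta cell factors, 4 non-beta factors, 7 progenitor factors and 18 factors shared among endocrine cells. This assignment rests on general knowledge, and several factors act in more than 1 class.

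The overexpressed microRNAs are shown because they define the transgenic sample. The 3p arms of miR-141 and miR-200c, as RefSeq gives them on GRCm38.p6, lie on the minus strand of mouse chromosome 6, at chr6:124717917-124717938 and chr6:124718324-124718346. Capitals mark the seed, bases 2 to 8 from the 5′ end, which pairs with messenger RNA targets.
miR-141-3p: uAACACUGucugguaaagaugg
miR-200c-3p: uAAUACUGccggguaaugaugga
Counted from the 5′ end, the seeds differ by the substitution C4U, with the miR-141-3p base first, so each microRNA has its own seed. Within the family miR-200a-3p shares the seed of miR-141-3p, and miR-200b-3p and miR-429-3p share that of miR-200c-3p. Target sites in the untranslated regions of the factors were not analysed here.

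Every value is a log2 expression value per probe set, and a difference is the transgenic minus the control value. A factor with several probe sets is represented by the probe set with the highest mean, and its other probe sets are given beside it. Probe sets have their own affinities, so their levels were not compared between genes. Across all 12143 genes that reached the floor, the median difference was 0.029, and the central 95% ran from -0.63 to 1.0. Among all genes with at least 2 probe sets at the floor, the probe sets of a gene differed from each other by a median of 0.277. The 24 poly-A spike controls all read higher on the transgenic array (median difference 1.51), as did the 18 hybridisation controls (median difference 0.40). Their part in the results was not tested. In whole islet RNA, fewer cells of a type and less RNA per cell cannot be told apart.

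Most lineage factors differed little between the 2 arrays, and so did most other genes. None of the 27 factors at the floor was at least 2-fold higher in the transgenic sample, where 2.51% of all genes were, and 1 was at least 2-fold lower, where 0.511% of all genes were. That factor was Eya1, a cofactor with a phosphatase domain. At 1.5-fold, no factor was higher, against 7.73% of all genes, and 2 were lower, Eya1 and Prox1, against 3.14% of all genes. A difference within 0.25 on the log2 scale was found for 19 of the 27 factors, or 70.4%, against 60.1% of all genes. The median size of a difference, whatever its sign, was 0.17 for the factors and 0.20 for all genes. The differences were above 0 for 14 factors and below 0 for 13, with a median of 0.0062 and a mean of -0.072, and 54.2% of all genes lay above 0. After subtraction of an intensity trend, or after a second quantile normalization, the split was 11 above and 16 below.

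**Figure D1:**
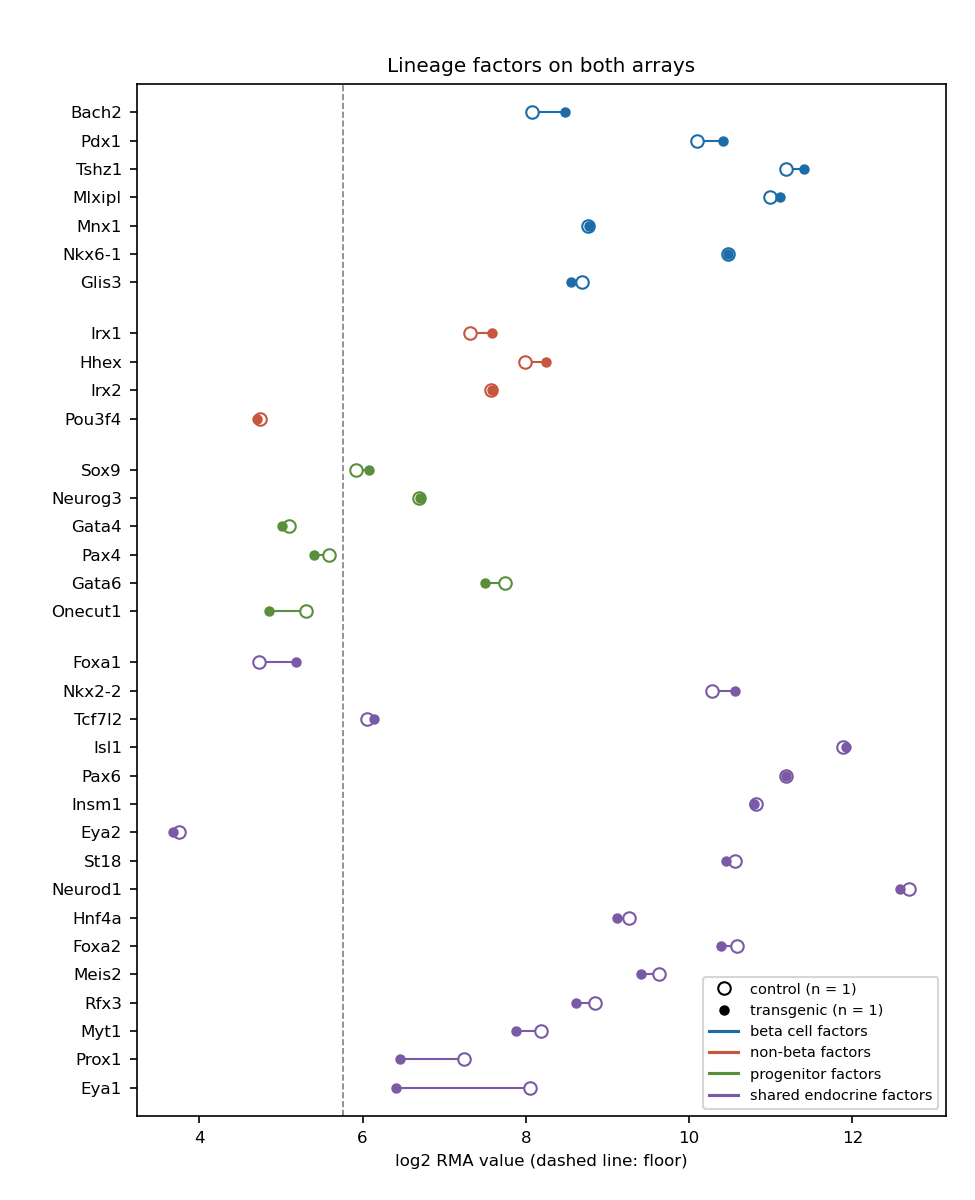
Log2 RMA value (x axis) of the probe set with the highest mean for each of the 33 factors with a probe set, by class (colours), in the control array (open points) and the transgenic array (filled points), with n = 1 each. The dashed line is the floor of 5.76; most pairs nearly coincide, and the longest line is that of Eya1, with 8.05 in control and 6.40 in transgenic islets.

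All 7 beta cell factors reached the floor, and 5 of them had a difference above 0. Pdx1, which is needed for the pancreas to form and activates the insulin gene in beta cells, read 10.41 in transgenic and 10.09 in control islets. Its difference was 0.32, or 1.25-fold, and its other probe set gave 0.37, at 6.60 against 6.23. Both probe sets of Pdx1 were thus higher in transgenic islets, by similar amounts, and both come from the same annotated accession. Nkx6-1, which keeps alpha cell genes off in beta cells, read 10.47 and 10.48, transgenic first, on its only probe set. Mnx1, a homeodomain protein of the dorsal pancreatic bud and of beta cells, read 8.77 and 8.76. Nkx6-1 and Mnx1 were thus level, with differences of -0.0083 and 0.0090.

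Bach2 had the highest difference of all 27 factors. This repressor of the bZIP family is best known from lymphocytes and has also been described in beta cells of diabetic islets. Its 3 probe sets were all at the floor and all higher in the transgenic sample, at 8.47 against 8.07, 8.10 against 7.82, and 6.37 against 6.00. The differences of 0.40, 0.27 and 0.37 lay below the 1.5-fold rule, and the first of them ranked 1714 from the higher end of all genes. Of 9 lymphocyte markers at the floor, a list added after seeing the data, 4 were higher and 5 lower, with a median of -0.14. These markers ran from -0.48 for Cd3d to 0.63 for Cd2, with a summed level of 11.83 against 11.72. Tshz1, a zinc finger homeobox protein that acts in beta cells, read 11.41 and 11.19, and its other probe set 10.05 and 9.93, so that its differences were 0.22 and 0.12. Mlxipl, the carbohydrate response factor ChREBP that turns on genes of sugar and fat metabolism when glucose is high, read 11.11 and 10.99, a difference of 0.12. Glis3, a zinc finger activator of the insulin gene, was the beta cell factor furthest lower, at 8.55 against 8.69, a difference of -0.14. Its single probe set leaves no second reading of the same RNA.

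Of the 4 non-beta factors 3 reached the floor, and these 3 had differences above 0. Irx1, an Iroquois homeodomain protein of the alpha cell lineage, read 7.59 in transgenic and 7.31 in control islets, a difference of 0.28. Irx2, which is expressed in the same lineage, read 7.59 and 7.57, a difference of 0.017. Hhex, which delta cells need for somatostatin expression, read 8.24 and 7.98, a difference of 0.26. Each of these factors has 1 probe set. Pou3f4, an alpha cell factor of the POU family, was below the floor on both of its probe sets, at 4.71 against 4.75 and 3.89 against 4.30, so its differences are not interpreted.

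The hormones of the same cells were level. Gcg, the glucagon gene, read 14.13 and 14.19, and Sst, the somatostatin gene, read 13.99 on both arrays. At such values an array is close to saturation and compresses differences. The sign of the Irx2 difference changed after the intensity trend was subtracted, at -0.039, while Irx1 and Hhex kept theirs, both at 0.22.

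Of the 7 progenitor factors 6 were analysed and 3 reached the floor. Neurog3, which commits progenitors to the endocrine fate, read 6.70 in transgenic and 6.69 in control islets, and its other probe set was below the floor at 3.52 against 3.89. Sox9, a factor of progenitors that adult duct cells keep, read 6.08 and 5.91, a difference of 0.17. Both values of Sox9 lay just above the floor, and its other probe sets, at 0.01 and 0.37, were below it. Among duct markers, 7 of the 8 that reached the floor were higher in the transgenic sample, from -0.15 for Anxa3 to 1.11 for Prom1, with a summed level of 13.74 against 13.33. The part of duct cells in the Sox9 value was not tested.

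Gata6, a zinc finger factor of early pancreas, gave opposite readings from its probe sets. The probe set with the highest mean read 7.50 and 7.75, a difference of -0.25, and another read 7.0 and 6.71, a difference of 0.29. Both come from the same annotated accession, and their mean difference was 0.023. The third probe set of Gata6 was below the floor. Gata6 is therefore not given a direction. Pax4, which favours the beta over the alpha fate in progenitors, read 5.41 and 5.59. Gata4, the relative of Gata6, read 5.02 and 5.10, and Onecut1, the liver and pancreas factor also called Hnf6, 4.85 and 5.31. These 3 genes were below the floor on every probe set, so their differences are not interpreted.

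The 18 shared endocrine factors included 14 at the floor, of which 10 had a difference below 0. Neurod1, a basic helix-loop-helix activator of insulin and a direct target of Neurog3, read 12.58 and 12.69, and its other probe set 11.04 and 11.18. The 2 differences of Neurod1, -0.11 and -0.14, were close to each other and small. Nkx2-2, a homeodomain factor of alpha and beta cells, had the highest difference of the class at 0.28, from 10.56 and 10.29. Pax6, which activates the hormone genes, read 11.19 and 11.18, and a further 2 probe sets that reached the floor gave 0.28 and -0.01. Isl1, a LIM homeodomain factor of all islet hormone cells, read 11.92 and 11.88 on the probe set with the highest mean, and 9.52 and 9.97 on the other. The differences of 0.04 and -0.46 come from the same annotated accession, and with probe sets averaged the Isl1 difference was -0.21.

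Insm1, a zinc finger factor of endocrine differentiation, read 10.80 and 10.82 on its brighter probe set and 10.76 and 10.66 on the other. Foxa2, a forkhead factor that opens chromatin at Pdx1 and other genes, read 10.39 and 10.58, a difference of -0.19. Foxa1, its relative, was below the floor at 5.18 and 4.73. Hnf4a, a nuclear receptor whose loss causes an inherited diabetes in humans, had negative differences on all 4 of its probe sets, from -0.24 to -0.04, with 9.11 against 9.26 on the brightest. The dimmest was below the floor on both arrays, at 4.91 against 4.99, and another reached it only in the control, at 5.80. The brightest and the remaining probe set share an annotated accession. Rfx3, a regulator of cilia genes and of insulin producing cells, read 8.62 and 8.85, a difference of -0.23. Its other probe set was below the floor at 5.51 against 5.42, and with probe sets averaged the Rfx3 difference was -0.07. Tcf7l2, the Wnt pathway factor at a type 2 diabetes risk locus in humans, read 6.14 and 6.06, and its 3 other probe sets were below the floor.

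Myt1 and St18 are related zinc finger proteins that follow Neurog3. Myt1 read 7.88 and 8.18, a difference of -0.30, with the same sign on its probe set below the floor. St18 read 10.46 and 10.56 on the brighter and 9.63 and 9.65 on the other probe set. Meis2, a TALE homeodomain factor, had 4 probe sets at the floor, with differences of -0.22, 0.02, -0.26 and -0.17. The brightest of them read 9.41 and 9.63. None of Myt1, St18 and Meis2 reached the 1.5-fold rule.

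**Figure D2:**
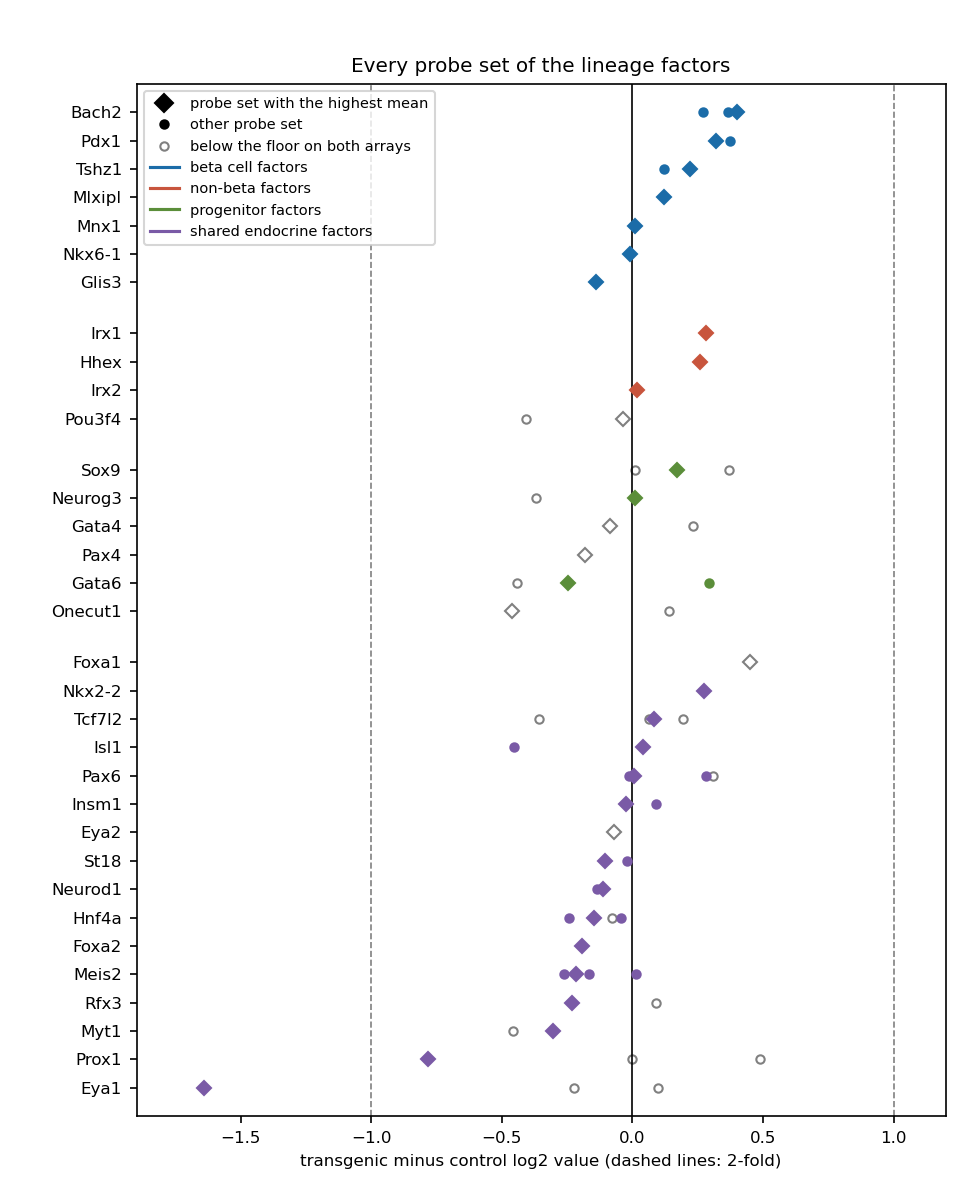
Transgenic minus control log2 value (x axis) of all 68 probe sets of the 33 factors, by class (colours), with the probe set of the highest mean as a diamond, other probe sets as circles, open symbols for probe sets below the floor on both arrays, and dashed lines at 2-fold. Only 1 probe set lies past a dashed line, at -1.64 for Eya1, and the 3 symbols of Bach2 lie together on the higher side.

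Eya1 stood apart from the other factors. Its protein is a coactivator and phosphatase that works with homeodomain proteins such as Six4 in organ formation. The brightest probe set of Eya1 read 6.40 in transgenic and 8.05 in control islets, a difference of -1.64, or 3.12-fold lower. It ranked 9 from the lower end of the 12143 genes at the floor. Its 2 other probe sets were below the floor on both arrays, at 4.74 against 4.65 and 3.79 against 4.01, with differences of 0.10 and -0.22. The lower value of Eya1 therefore rests on 1 probe set, and no second reading at the floor exists. Eya2, which belongs to the same protein family, was below the floor at 3.68 and 3.75.

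Prox1 was the other factor past 1.5-fold. It is a homeodomain protein of early pancreas and islets that also specifies lymphatic vessels. Its brightest probe set read 6.46 in transgenic and 7.24 in control islets, a difference of -0.78, or 1.72-fold lower, ranked 133 from the lower end. Its other probe sets were below the floor, at 4.78 against 4.29 and at 4.98 on both arrays. Prox1, like Eya1, was thus read at the floor by 1 probe set. Of the 9 endothelial markers at the floor 7 were higher in the transgenic sample, from -0.61 for Erg to 0.88 for Pecam1, and their summed level was 12.09 against 12.01. Of 4 lymphatic vessel markers, also added after seeing the data, 2 were higher, from -0.25 for Pdpn to 0.88 for Lyve1. Reln stood at 0.25 and Flt4 at -0.03. The summed level of the 4 was 9.49 against 9.10, and Lyve1 alone read 8.55 against 7.67.

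**Figure D3:**
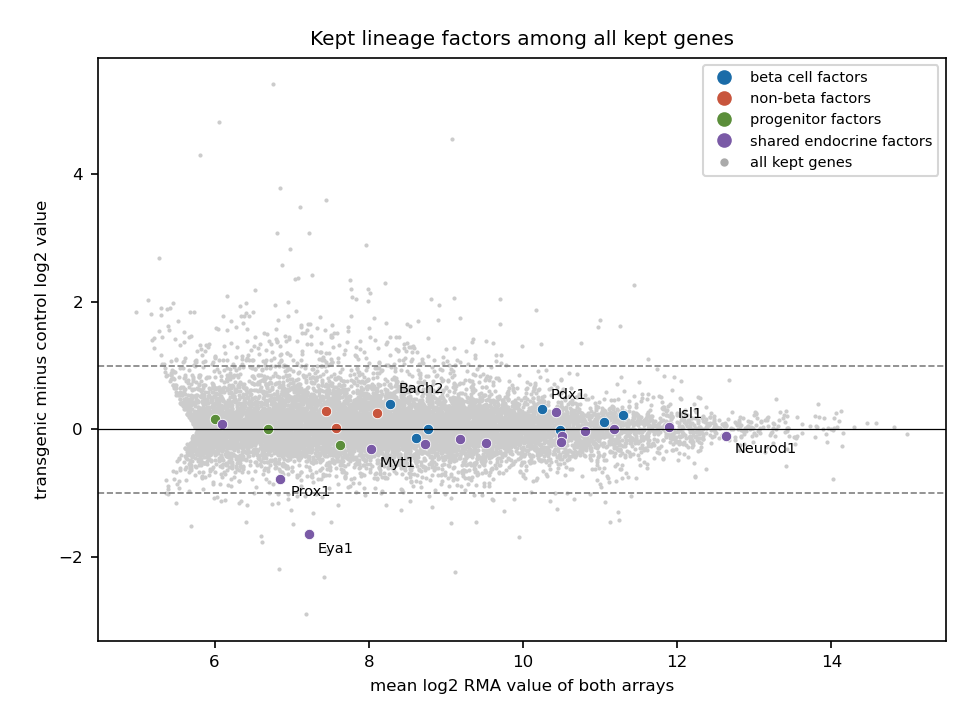
Transgenic minus control log2 value (y axis) against the mean log2 value of both arrays (x axis) for the 27 factors at the floor (colours by class) and all 12143 genes at the floor (grey), with dashed lines at 2-fold. Eya1 at -1.64 and Prox1 at -0.78 lie below the other factors, which stay between -0.30 and 0.40.

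The classes were then set side by side. The median difference was 0.12 for the 7 beta cell factors, 0.26 for the 3 non-beta factors, 0.010 for the 3 progenitor factors and -0.13 for the 14 shared factors. The mean of the progenitor factors had the opposite sign to their median, at -0.023. The ranges of the classes overlapped. Beta cell factors ran from -0.14 (Glis3) to 0.40 (Bach2), non-beta factors from 0.017 (Irx2) to 0.28 (Irx1), progenitor factors from -0.25 (Gata6) to 0.17 (Sox9), and shared factors from -1.64 (Eya1) to 0.28 (Nkx2-2). No test of the class differences is possible with 1 array per genotype.

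The sizes of the class medians, and the sign of that for the progenitor factors, depended on where the shared factors were counted. With Nkx2-2, Neurod1, Isl1, Pax6, Foxa2, Hnf4a, Insm1 and Rfx3 added to the beta cell factors, the median of the 15 at the floor was 0.0062. With Meis2 added to the non-beta factors it was 0.14. With Myt1, St18, Prox1, Eya1 and others that act in progenitors added to the progenitor class, the median of the 7 at the floor was -0.25, against 0.010. The median of -0.25 is the value of Gata6, whose probe sets gave opposite readings, and that of 0.010 is the value of Neurog3.

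**Figure D4:**
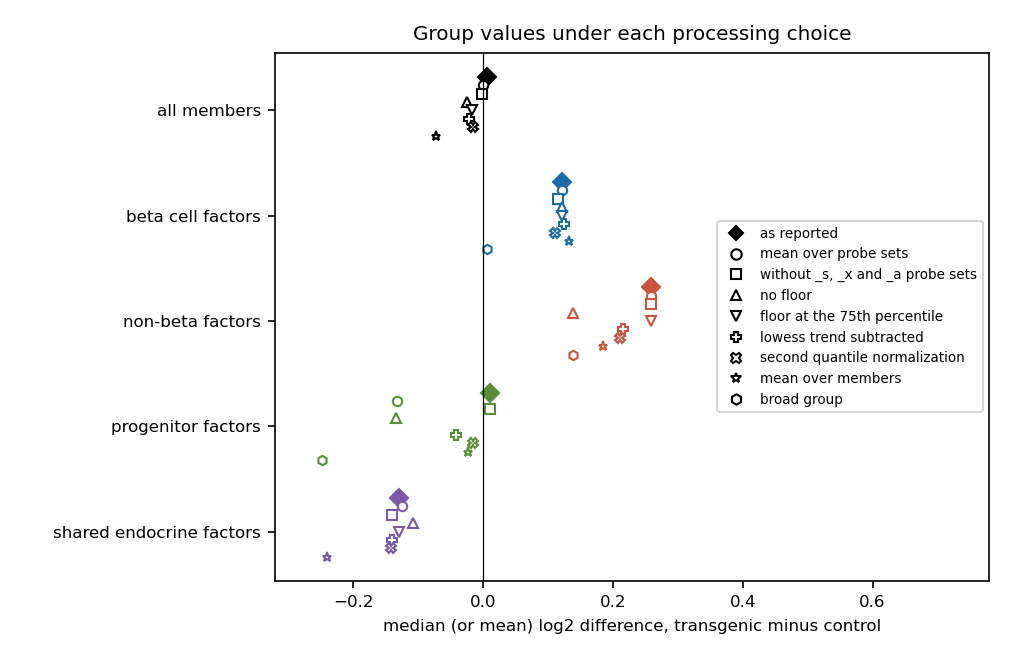
Median log2 difference (x axis; mean where stated) of all 27 factors at the floor and of each class, as reported (filled diamonds) and under each other processing choice (open symbols; the broad group adds shared factors to a class). The reported medians run from -0.13 to 0.26, the beta cell and non-beta factors stay above 0 and the shared factors below 0 under every choice shown, and the progenitor factors fall on both sides.

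Probe sets of the same factor did not always have the same sign. Of the 11 factors with at least 2 probe sets at the floor, 6 had all of these on the same side of 0, or 54.5%, against 58.2% of all 5180 such genes. The 6 were Pdx1, Tshz1 and Bach2, higher, and Neurod1, Hnf4a and St18, lower. The probe sets of Pdx1 share an annotated accession, as do those of Tshz1 and those of Neurod1. Probe sets of a factor lay a median of 0.13 apart over the 11 factors, and the widest range was 0.54, for Gata6. Over all 43 probe sets of factors at the floor, 22 differences were above 0 and 21 below.

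The factors that Neurog3 switches on were also described as a group of 8 that includes Neurog3 itself, of which 6 were at the floor. Their median was -0.065, with 2 above 0 and 4 below. They ran from -0.30 for Myt1 to 0.28 for Nkx2-2, and none passed the 1.5-fold rule.

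A list of 32 further transcription factors of islets and pancreas had 19 at the floor, of which none was 2-fold higher or lower. Their median was -0.094, with 8 above 0 and 11 below. The furthest were Rest, a repressor of neuronal genes that is kept low in endocrine cells, at 6.97 against 6.21, Nfib, a nuclear factor I protein, at 6.68 against 5.97, and Runx1t1, a corepressor, at 7.85 against 8.53. The differences were 0.76 for Rest, 0.71 for Nfib and -0.68 for Runx1t1. The other probe sets of Runx1t1 at the floor ran from -0.67 to -0.33 and that of Rest gave 0.64, while those of Nfib gave 0.08 and 0.13.

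Among 23 cofactors and partners of the lineage factors, 20 were at the floor, with a median of -0.0016 and a mean of 0.048, and 10 lay on each side of 0. Dach2, a corepressor of the Dachshund family that acts with Eya proteins, was the only one past 2-fold, at 7.92 in transgenic and 6.31 in control islets, a difference of 1.61 on its only probe set at the floor. The remaining partners of Eya1, named after their values were seen, differed less. Six4 stood at -0.20, Six5 at -0.31 and Dach1 at 0.20, and Six2 was below the floor. Ldb1, the bridging protein that binds Isl1, stood at 0.14 and was likewise named after its value was seen.

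Genes that the lineage factors bind or drive in beta cells were at the floor for 14 of 20, with a median of 0.027. Of these, 8 were above 0 and 6 below, and only Npy, a neuropeptide of young beta cells, was past 2-fold, at 11.87 against 10.14, a difference of 1.72. Ucn3, a peptide of mature beta cells, was the gene furthest lower and the only one past 1.5-fold on that side, at 10.80 against 11.61, a difference of -0.81 on its only probe set at the floor. Abcc8, a subunit of the potassium channel that couples glucose to insulin release, stood at 0.49, and its other probe set at 0.92. The beta cell hormone genes Ins2 and Iapp read 14.95 and 15.02, and 14.84 and 14.80. Of 12 targets of Mlxipl 11 were at the floor, with a median of 0.27, a mean of 0.11 and none past 2-fold. Their differences were above 0 for 6 and below 0 for 5. Gpd1, an enzyme of glycerol phosphate metabolism, stood at 0.59, Acaca, acetyl-CoA carboxylase, at -0.47, and Arrdc4, an arrestin related regulator of glucose uptake, at 0.47. The other probe set at the floor gave -0.0071 for Arrdc4 and 0.31 for Gpd1. Of 12 genes of the Wnt pathway that Tcf7l2 serves, 5 were at the floor, with a median of -0.11. Znrf3, a Wnt receptor ubiquitin ligase, stood at -0.33, Myc at 0.31 and Ccnd1, cyclin D1, at -0.31.

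**Figure D5:**
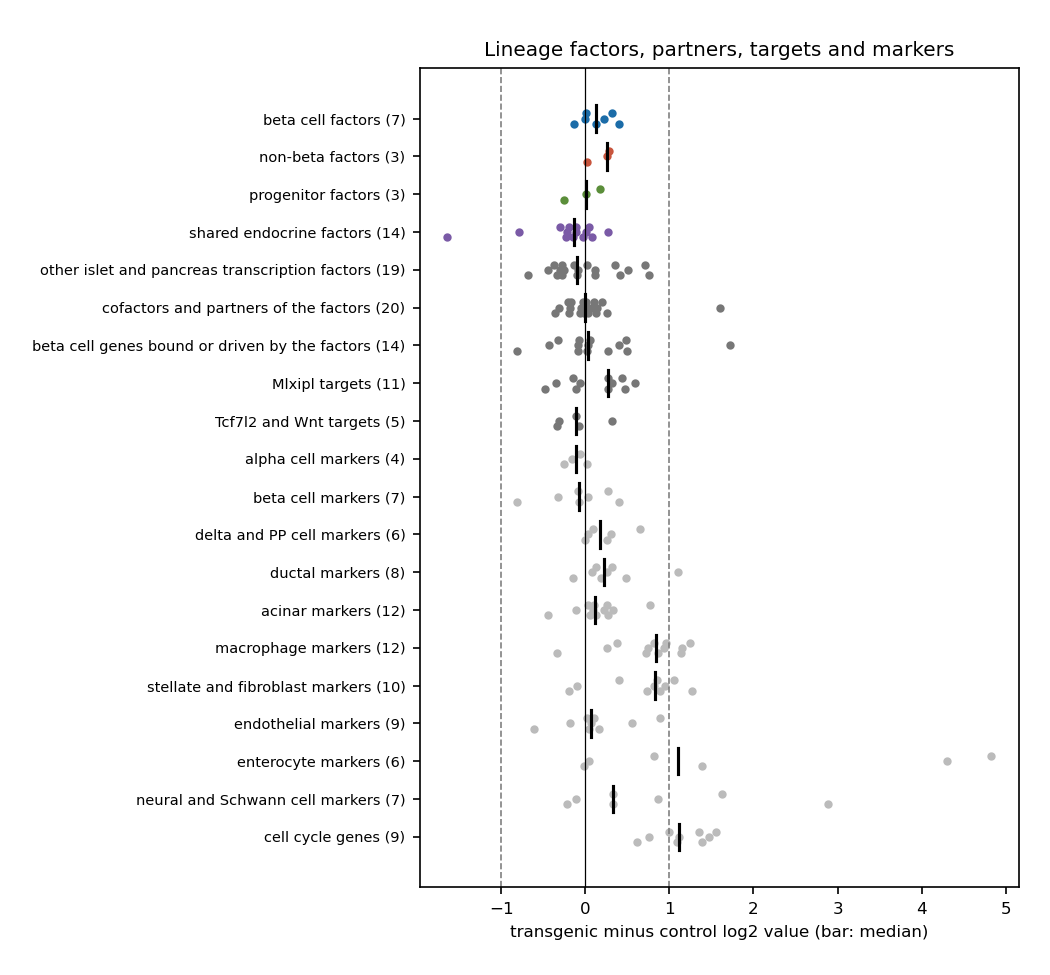
Transgenic minus control log2 value (x axis) of each gene at the floor, in rows by list with the number of genes in brackets, for the 4 classes of lineage factors (colours), lists of partners and targets (dark grey) and markers of cell types or the cell cycle (light grey). Bars are medians and dashed lines mark 2-fold; the lineage factor classes lie around 0, and the macrophage, stellate, enterocyte and cell cycle rows lie higher.

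Markers of several other cell types had larger median differences than the lineage factors. Beta cell markers had a median of -0.075 over 7 at the floor, from -0.81 for Ucn3 to 0.40 for Ero1b. Alpha cell markers had a median of -0.11 over 4, from -0.25 for Ttr to 0.017 for Irx2. Delta and PP cell markers had a median of 0.18 over 6, from 0.00 for Sst to 0.65 for Ghrl. Ghrl, the ghrelin gene of epsilon cells, was the only gene of this list past 1.5-fold. The hormone genes Ppy and Pyy stood at 0.09 and 0.03. The last list includes Hhex, and the alpha list includes Irx2. Macrophage markers were higher, with 11 of 12 above 0 and a median of 0.84, from -0.34 for Cd14 to 1.25 for Mpeg1, and a summed level of 12.77 against 12.21. Stellate and fibroblast markers had a median of 0.83, with 8 of 10 above 0, from -0.19 for Thy1 to 1.27 for Col1a2. Their summed level was 13.17 against 12.41.

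Acinar markers had a median of 0.12, with 10 of 12 above 0, from -0.44 for Bhlha15 to 0.78 for Pla2g1b. Enterocyte markers had a median of 1.10 over 6 at the floor, from -0.02 for Anpep to 4.83 for Fabp2, while the enterocyte factors Cdx1 and Cdx2 were below the floor. Neural and Schwann cell markers had a median of 0.33 over 7, from -0.22 for Tubb3 to 2.89 for Dcx. Genes of the cell cycle were all higher, with a median of 1.11 over 9, from 0.61 for Mcm2 to 1.55 for Tpx2. The part of these cell types in the values of Bach2, Sox9, Prox1 and Eya1 was not tested.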

How the data were processed

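Islet RNA was read on 1 expression array per genotype. The authors deposited log2 values for each probe set, made by RMA in Affymetrix Expression Console per the submitters' processing notes, which list no versions. RMA corrects background, equalises the arrays and compresses differences at both ends of the scale. It carries no detection call.

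Samples were grouped by the labelled genotype. Probe sets were named through the platform annotation, with symbols updated by Entrez identifier to the GRCm38.p6 gene table (34741 of 34945 with 1 symbol matched); 932 probe sets with several symbols and 9160 with none were left out. A gene was represented by its probe set of highest mean, and was kept if 1 of its values was at or above 5.76, which is the median over all probe sets. The size rule was 2-fold. A summed level is the log2 of summed linear values. The collapse and the counts were tested on simulated data with known differences. Alternatives were the mean over probe sets, no _s, _x or _a probe sets, no floor or a 75th percentile floor of 7.81, a lowess trend (span 0.3), a repeated quantile normalization, a 1.5-fold rule, list means and broader classes.

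Named genes were all factors with a value, the genes of each partner or target list past 2-fold or else its 3 furthest, and the furthest of each marker list; hormones, Ucn3, Abcc8, Ldb1 and Eya partners outside this rule, and the lymphocyte and lymphatic lists, were chosen after values were seen. Factors, lists and classes were chosen with earlier results of these data known. Python 3.11.15, numpy 2.4.6, pandas 2.3.3 and statsmodels 0.14.6 were used. The number of arrays limits the precision.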

Additional observations from a re-analysis of the deposited data

How the results depend on the processing

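No paired analysis was possible because each genotype has 1 array. No factor was 2-fold higher under any alternative, and none was higher at the 1.5-fold rule. The count of factors at least 2-fold lower was 1 under 5 of the alternatives, 0 with probe sets averaged per gene, where the mean of the 3 Eya1 probe sets fell below the floor, and 2 at the 1.5-fold rule. Where Eya1 had a value, its difference ran from -1.70 to -1.64. Over the alternatives, 1 of which took the mean in place of the median, the median difference of the beta cell factors ran from 0.0062 to 0.13, that for the non-beta factors from 0.14 to 0.26, that for the shared factors from -0.24 to -0.11, and that for the further islet and pancreas factors from -0.14 to -0.012. The progenitor factors ran from -0.25 with the broader class to 0.010, and the stricter floor left none of them. Of the 27 factors 22 kept the sign of their difference under all alternatives that gave a value. The other 5 were Isl1, Insm1, Irx2, Neurog3 and Mnx1, none of which differed by more than 0.041 as reported. Removing or raising the floor leaves the value of a factor as it was, so these alternatives could not change its sign. Leaving out _s, _x and _a probe sets could do so only where the brightest probe set was of that kind. The median of all 27 factors was 0.0062 as reported and -0.021 after trend subtraction, and that of the progenitor factors was 0.010 as reported, -0.041 after trend subtraction, -0.13 with no floor and -0.13 with probe sets averaged, where only Gata6 reached the floor, so neither has a settled direction. The median of all genes ran from 0.00049 to 0.029 over the alternatives. Factors below the floor, and folds of factors near it, are limited by the background of the array.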
